A study of Caenorhabditis elegans with 2 samples.

Results

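The 1727 candidate peaks described here lie in the piRNA-rich windows of Caenorhabditis elegans chromosome IV, out of 5025 candidates on that chromosome and 30000 in the whole pooled list. They are all candidates whose summit fell between 4.5 and 7.0 Mb, the left window with 772 candidates, or between 13.5 and 17.2 Mb, the right window with 955. Within this rule position alone decided which candidates belong, not their strength, spacing or sequence. The windows themselves were set to cover the piRNA clusters, with earlier results of these data known. The remaining 3298 candidates of chromosome IV served for comparison.

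Chromatin immunoprecipitation with sequencing (ChIP-seq) mapped the DNA bound by AHA-1 fused to eGFP, in whole animals at L4, the last larval stage. Their sex is recorded only in general terms, as males and females pooled. The animals were of strain OP124, which carries the insertion wgIs124 for eGFP-tagged aha-1 in an unc-119(ed3) III background, and both libraries share it. There was 1 group of 2 biological replicates, with no untagged or mutant group to set against it. Replicate 1, replicate 2 and the pooled alignments each gave a list of 30000 peaks called against a control, which was not analysed here, and a further list, cut by irreproducible discovery rate (IDR), kept the 530 strongest pooled candidates. Each list of 30000 is described by its depositors as holding background as well as peaks, so a candidate is not by itself a bound site. Signal values come from whole animals, so binding in a few cells and weak binding in many cannot be told apart.

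AHA-1 is the worm orthologue of ARNT, a basic helix-loop-helix protein with PAS domains that acts as a shared partner. With HIF-1 it takes part in the response to low oxygen, and with AHR-1 in neuronal development. Such pairs are known from mammals to recognise a short core, ACGTG with HIF or GCGTG with the aryl hydrocarbon receptor. Worm piRNAs, also called 21U-RNAs, are small RNAs of the germ line that guide the Piwi protein PRG-1 to silence foreign sequences. Most are transcribed by RNA polymerase II from tiny separate genes that carry an upstream motif with the core CTGTTTCA, and these genes lie in clusters on chromosome IV.

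The windows were set to cover the piRNA clusters, and the annotation fitted this label. They held 14204 of the 14714 piRNA genes annotated on chromosome IV and of 15363 in the genome. That was 2291 piRNA genes per Mb in the windows, 1126 per Mb in the left and 3078 per Mb in the right, against 45.2 per Mb in the rest of the chromosome. Protein-coding genes were sparser, with 151 per Mb in the windows and 207 per Mb elsewhere on chromosome IV. CTGTTTCA stood within 60 bp upstream, on the gene's own strand, of 34.8% of the window piRNA genes, with its first base at a median of 46 bp before the start. This is a spelled-out match and misses variants of the motif.

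Sequences are shown first for 9 of the 11 IDR sites of the windows with the core ACGTG or GCGTG within 50 bp of the summit. Of the other two, that of ntl-11 stands with its neighbour Y73F8A.27 and that of Y37A1B.7 is not shown. Each line gives 81 bp of the plus strand centred on the summit (WBcel235, the same assembly as ce11), with every ACGTG or GCGTG on either strand in capitals. The sqrd-1 line is cut to the 55 bp outside the annotated untranslated region. Along the plus strand, the nearest core of these 9 stood from -36 bp (dld-1 and ipla-6) to 14 bp (Y17G9B.5) of the summit.
skn-1, chrIV:5656110-5656190: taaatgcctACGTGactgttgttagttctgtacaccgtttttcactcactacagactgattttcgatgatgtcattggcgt
Y17G9B.5, chrIV:4750012-4750092: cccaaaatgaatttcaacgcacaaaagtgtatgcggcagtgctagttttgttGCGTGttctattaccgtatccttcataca
sqrd-1, chrIV:14219816-14219870: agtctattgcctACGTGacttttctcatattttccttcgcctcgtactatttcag
F29B9.11, chrIV:4660465-4660545: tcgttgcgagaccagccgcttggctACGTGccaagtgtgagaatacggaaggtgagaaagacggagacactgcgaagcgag
sqd-1, chrIV:6323848-6323928: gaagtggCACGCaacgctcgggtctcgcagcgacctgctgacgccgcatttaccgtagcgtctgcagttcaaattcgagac
dld-1, chrIV:14464235-14464315: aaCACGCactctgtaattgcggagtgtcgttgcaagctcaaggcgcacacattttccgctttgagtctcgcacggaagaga
ipla-6, chrIV:6336858-6336938: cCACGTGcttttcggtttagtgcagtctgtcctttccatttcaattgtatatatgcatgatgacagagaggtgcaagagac
tsr-2, chrIV:16656347-16656427: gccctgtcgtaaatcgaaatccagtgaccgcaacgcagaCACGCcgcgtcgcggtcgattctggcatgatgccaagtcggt
ceh-48, chrIV:6809896-6809976: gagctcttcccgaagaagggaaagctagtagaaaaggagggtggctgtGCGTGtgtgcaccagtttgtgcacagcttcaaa

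A second set shows sequence at the strongest sites beside piRNA genes. For 21ur-10600 the line gives 60 bp of upstream sequence followed by the 21 bases of the piRNA gene, on the gene's own strand, with CTGTTTCA in capitals. This line ends before the sqrd-1 peak begins. The other lines give 81 bp around the summit on the plus strand. That of K02B2.6 starts within 21ur-5229, past its upstream sequence. The 60 bp upstream of 21ur-5229 and of 21ur-14549, beside the F55B11.4 summit, hold no CTGTTTCA.
21ur-10600, chrIV:14219626-14219706, plus strand, beside the sqrd-1 site: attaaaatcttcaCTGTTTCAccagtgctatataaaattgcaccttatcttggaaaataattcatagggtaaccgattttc
summit near F55B11.4, chrIV:14436048-14436128: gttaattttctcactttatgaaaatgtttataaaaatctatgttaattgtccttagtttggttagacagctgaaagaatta
summit near K02B2.6, chrIV:5967107-5967187: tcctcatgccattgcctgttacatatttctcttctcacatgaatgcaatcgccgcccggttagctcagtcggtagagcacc

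How densely were the windows covered? The pooled list placed 279 candidates per Mb in the windows (95% exact Poisson interval 266 to 292) and 292 per Mb in the rest of chromosome IV (282 to 302). The ratio was 0.954, with an interval of 0.899 to 1.01 that covers the counting of peaks only, so no difference was detectable at this number of peaks. The left window had 309 per Mb (287 to 331) and the right window 258 per Mb (242 to 275). The average over the genome was 299 per Mb.

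The replicates did not give the same answer. In replicate 1 the windows held 1467 peaks, or 237 per Mb, and the rest of the chromosome 302 per Mb, a ratio of 0.783 (0.736 to 0.833). In replicate 2 they held 1827 peaks, or 295 per Mb, against 293 per Mb in the rest, a ratio of 1.01 (0.949 to 1.07). The intervals of these ratios did not overlap. Base composition moved with this difference. The median GC content of the 101 bp around a summit was 38.6% over the whole list of replicate 1 and 34.7% over that of replicate 2, and the DNA of the windows had 33.0% GC against 35.5% in the rest of the chromosome. The part of base composition in the replicate difference was not tested.

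**Figure D1:**
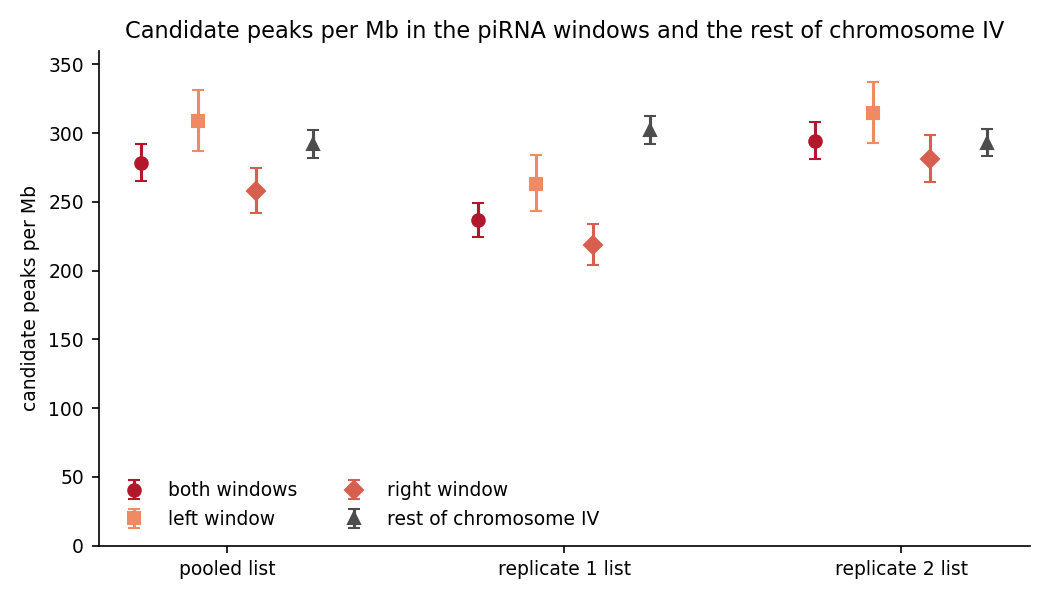
Candidate peaks per Mb (vertical axis) in the pooled list and in each replicate's list, for both windows together, the left window, the right window and the rest of chromosome IV; bars are 95% exact Poisson intervals of the peak number. In replicate 1 the windows (237 per Mb) lie below the rest of the chromosome (302 per Mb), and in replicate 2 they lie beside it (295 and 293 per Mb).

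Within the windows, the number of candidates was compared with the number of piRNA genes, and the replicates gave different values. Over stretches of 100 kb in the pooled list, the number of candidates ran from 14 to 52 in the left window, with a median of 30, and from 14 to 44 in the right window, with a median of 26. Spearman's rho between candidates and piRNA genes was 0.0911 over the 25 stretches of the left window and 0.176 over the 37 of the right window. Replicate 1 gave 0.0388 in the left window and 0.0551 in the right. Replicate 2 gave 0.207 and 0.402 for the same windows. Neighbouring stretches share base composition and gene density, so these values are descriptive only.

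**Figure D2:**
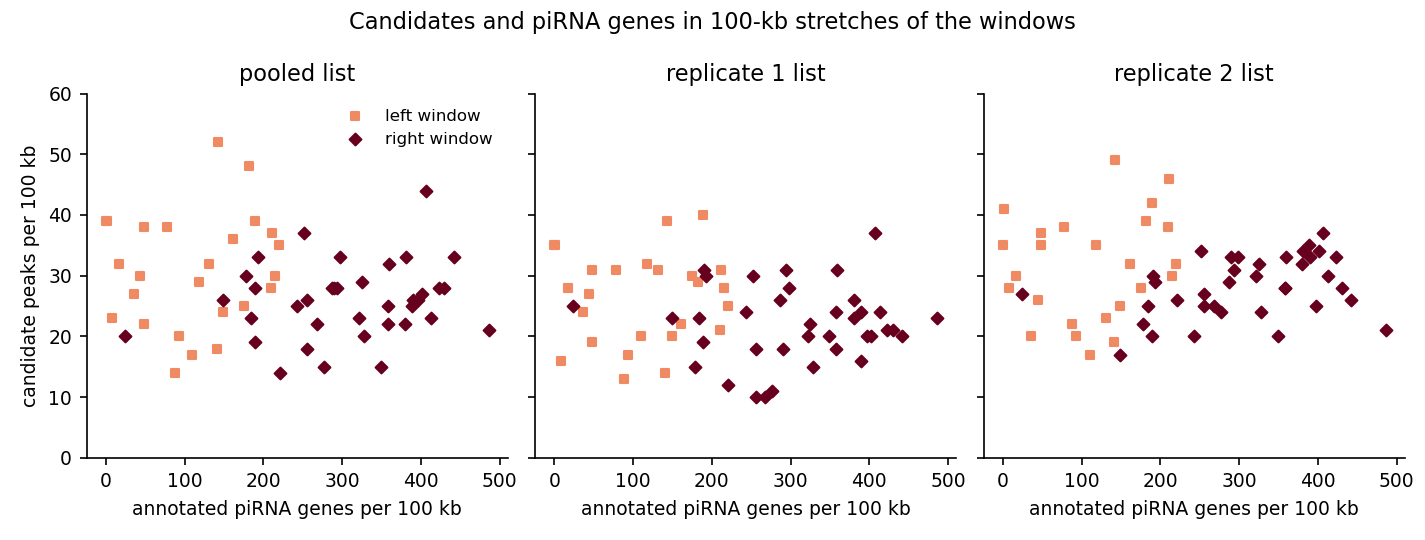
Candidate peaks (vertical axis) against annotated piRNA genes (horizontal axis) in each 100-kb stretch of the left window (squares) and the right window (diamonds), in the pooled list and each replicate's list. Each point is 1 stretch, and in the pooled list stretches of the left window hold 14 to 52 candidates while those of the right window hold 14 to 44.

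By strength the candidates of the windows stood in the middle of the pooled list, with a smaller share of them among its 5000 strongest. In each replicate that share was close to the share in the rest. Per Mb, candidates of rank 5000 or better were scarcer in the windows in the pooled list and replicate 1, but not in replicate 2. Their median pooled rank was 15332, where rank 1 is the strongest signal, against 15248 in the rest of chromosome IV. Median signal, the deposited value per peak on a scale not stated, was 7.01 in the windows and 7.03 in the rest. At the upper quartile of strength the ranks were 8644 in the windows and 7649 in the rest. Among the 5000 strongest candidates of the genome were 225 from the windows, 13.0% of them (95% exact interval 11.5 to 14.7), against 526 or 15.9% (14.7 to 17.2) in the rest of the chromosome and a background of 16.7% of all candidates. The same share was 15.27% in the windows and 16.03% in the rest in replicate 1, and 15.93% and 15.99% in replicate 2. Per Mb, the ratio of windows over rest at rank 5000 or better was 0.779 (0.664 to 0.913) in the pooled list, 0.746 (0.636 to 0.873) in replicate 1 and 1.00 (0.865 to 1.16) in replicate 2.

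The IDR list took 14 candidates from the windows, 0.811% of them (0.444 to 1.36), and 48 from the rest of chromosome IV, 1.46% (1.08 to 1.93), where 1.77% of all candidates were listed. Per Mb that was 2.26 in the windows (1.23 to 3.79) and 4.25 in the rest (3.13 to 5.64). The left window had 8 and the right window 6. The ratio of these densities was 0.531, with an interval of 0.271 to 0.980 that covers counting error only and leaves out 1. Among the 530 strongest peaks of each replicate it was 0.584 (0.317 to 1.03) in replicate 1 and 0.586 (0.324 to 1.01) in replicate 2, where both intervals include 1. With the windows widened by 250 kb, 1.135% of the window candidates (0.721 to 1.70) were in the IDR list. With them narrowed by 250 kb, the share was 0.833% (0.431 to 1.45). The density ratio of IDR sites was not computed for those edges.

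The layout was also compared inside and outside the promoters of protein-coding genes. A promoter window covered 1000 bp before and 500 bp after each annotated start of protein-coding transcripts. Inside promoter windows the IDR list had 6.16 sites per Mb in the piRNA windows (10 sites, 2.95 to 11.3) and 6.71 per Mb in the rest of chromosome IV (26 sites, 4.38 to 9.83). Outside them it had 0.874 per Mb (4 sites, 0.238 to 2.24) in the piRNA windows and 2.97 per Mb (22 sites, 1.86 to 4.49) in the rest. For rank 5000 or better the same measure gave 53.0 per Mb in the piRNA windows and 64.2 per Mb in the rest inside promoter windows, and 30.4 against 37.3 per Mb outside them. Counted per 100 protein-coding genes, the piRNA windows had 24.0 such candidates (21.0 to 27.3) and the rest of the chromosome 22.4 (20.6 to 24.5). Replicate 1 had 49.3 per Mb in the piRNA windows and 60.4 in the rest inside promoter windows, and 31.5 against 42.2 per Mb outside them. Replicate 2 had 56.6 and 61.9 per Mb inside, and outside the order turned, with 43.5 per Mb in the piRNA windows and 39.0 in the rest. Per 100 protein-coding genes replicate 1 gave 23.9 in the piRNA windows and 23.3 in the rest, and replicate 2 gave 31.0 (27.6 to 34.8) and 22.6 (20.7 to 24.6).

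**Figure D3:**
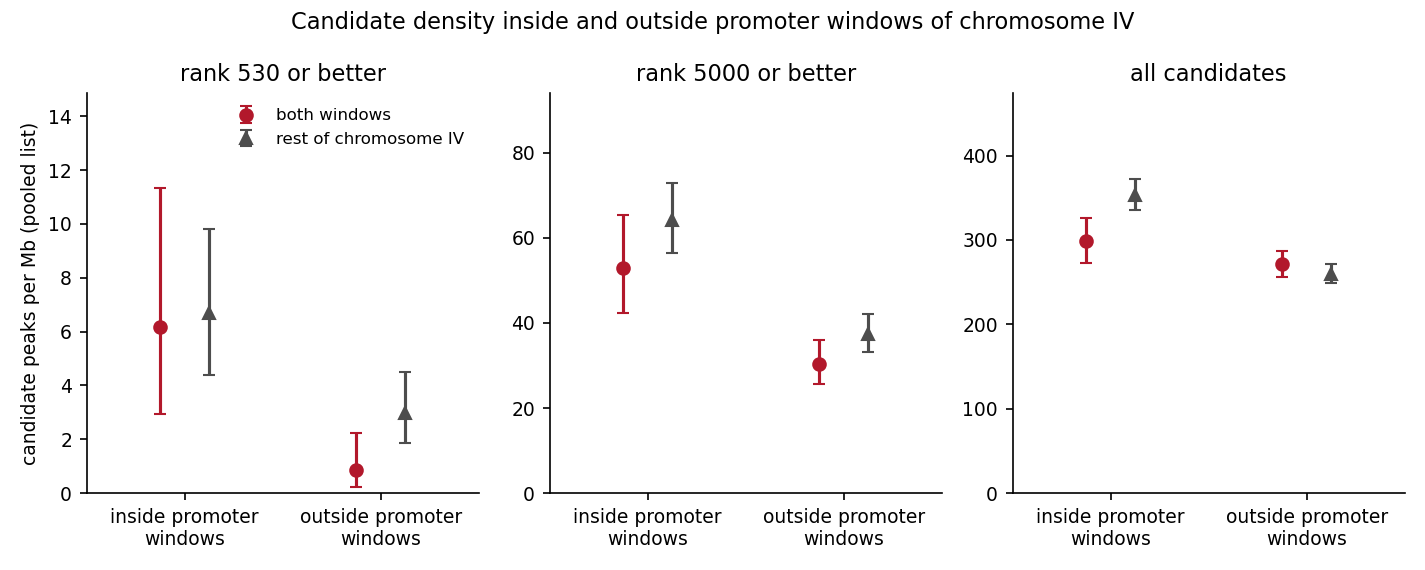
Candidates of the pooled list per Mb (vertical axis) inside and outside promoter windows of protein-coding genes, for rank 530 or better, rank 5000 or better and all candidates, in the piRNA windows (circles) and in the rest of chromosome IV (triangles); bars are 95% exact Poisson intervals. At rank 530 or better the values inside promoters are close (6.16 and 6.71 per Mb) and those outside lie further apart (0.874 and 2.97 per Mb).

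Where in the genes did the candidates fall? Of the 1727, 485 lay in a promoter window, 28.1% (26.0 to 30.3) where 26.2% of the bases of the piRNA windows do. In the rest of the chromosome 41.5% did, where 34.3% of bases do. Intergenic summits made up 50.8% in the windows and 38.8% in the rest, introns 31.4% and 33.5%, coding exons 14.5% and 21.1%, and untranslated exons 3.36% and 6.55%. Of the bases themselves, 50.6% of the windows and 34.5% of the rest were intergenic.

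The strongest site of the windows lay in skn-1, which encodes the worm counterpart of the Nrf stress-response factors. Its signal was 78.96 in the pooled list, 45.69 in replicate 1 and 31.84 in replicate 2, and its ranks were 26, 16 and 70. The summit, chrIV:5656150, was in an intron and 545 bp upstream of an internal start, with its ACGTG 29 bp away. No piRNA gene was nearer than 7325 bp.

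Several of the strongest sites flanked genes of mitochondrial function. At Y17G9B.5, annotated as a homologue of the respiratory complex assembly factor ECSIT, the pooled rank was 33, with rank 232 in replicate 1 and rank 17 in replicate 2. The site of sqrd-1, whose product oxidises hydrogen sulphide, ranked 44, with 22 in replicate 1 and 124 in replicate 2, and its summit was 15 bp upstream of the start. At F29B9.11, annotated as a subunit of cytochrome c oxidase, the rank was 59, with 349 and 29 in the replicates. The dld-1 site, upstream of the gene for dihydrolipoyl dehydrogenase, ranked 178, with 204 in replicate 1 and 338 in replicate 2. These 4 genes were grouped by function after their ranks were seen, so the grouping has no test.

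Further IDR sites lay by genes of other functions, grouped here after their ranks were seen and with no test. The site 113 bp upstream of ntl-11, a subunit of the CCR4-NOT deadenylase complex, ranked 92 in the pooled list, with 262 in replicate 1 and 78 in replicate 2. That of sqd-1, which encodes an RNA-binding protein, ranked 108 with 72 and 384. The site of tsr-2, a ribosome maturation factor, ranked 339 with 575 and 490 and had its GCGTG only 1 bp from the summit. ceh-48, a homeobox gene of the ONECUT class, had its site 2172 bp upstream at rank 367, with 287 and 319 in the replicates. The nhr-46 site, in an intron of that nuclear receptor gene, was the weakest of the 14 at rank 527.

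The remaining IDR sites were those of ipla-6 at rank 199, an uncharacterised gene of clone Y105C5A (WBGene00194913) at rank 275, Y37A1B.7 at rank 285 and K02B2.6 at rank 342. The Y37A1B.7 site lay 9746 bp from that gene's start, between genes, and within 200 bp of cel-mir-52, a microRNA gene. Just below the IDR limit followed Y73F8A.27 at rank 531, W03F8.4 at rank 534, F55B11.4 at rank 549, the phosphatase gene lip-1 at rank 561, the developmental timing gene lin-66 at rank 596 and ccar-1 at rank 609. The nearest gene need not be the gene a site acts on.

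**Figure D4:**
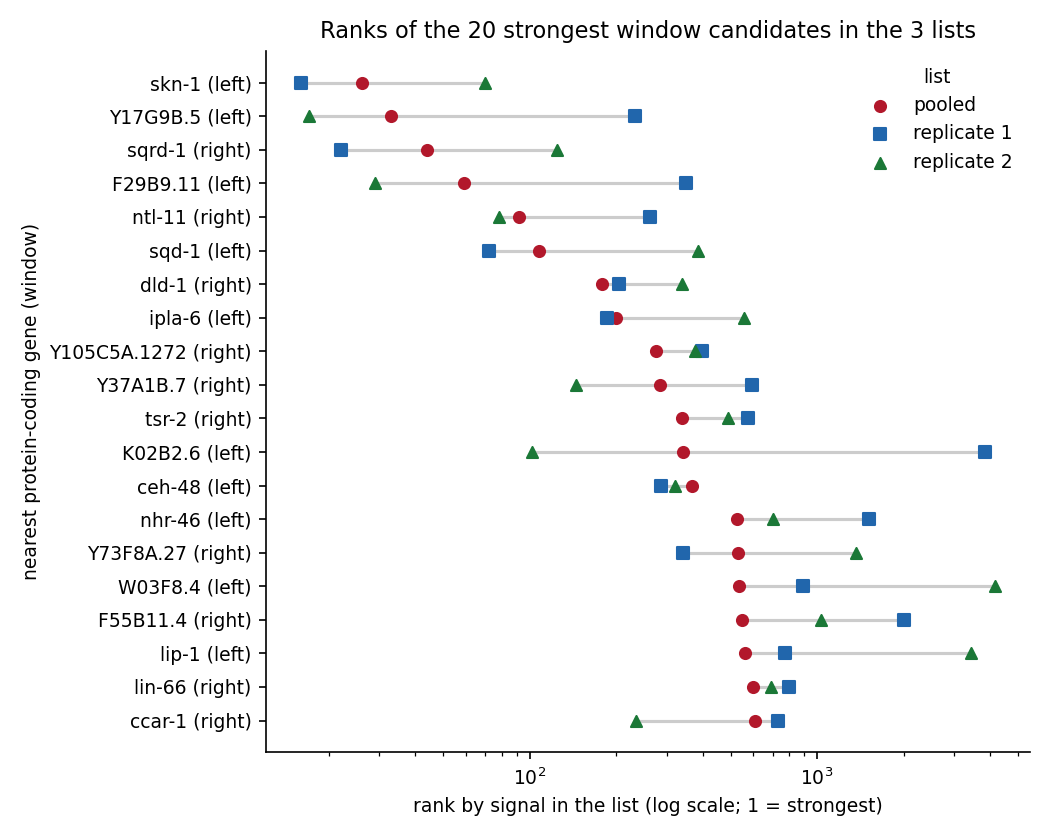
Rank by signal (horizontal axis, log scale, 1 is strongest) of the 20 strongest window candidates in the pooled list (circles), replicate 1 (squares) and replicate 2 (triangles), 1 row per site named by its nearest protein-coding gene. Lines join the 3 ranks of a site; K02B2.6 spans the widest range, with rank 3825 in replicate 1 and rank 102 in replicate 2.

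Each of the 20 strongest window candidates overlapped a peak in both replicate lists. Of these 20, 11 ranked nearer the top in replicate 2 and 9 in replicate 1. The 14 IDR sites had a median rank of 274.5 in replicate 1, and of 232 in replicate 2. Both replicates ranked 12 of the 14 within their top 1000, and 9 of the 14 within their top 530. In the rest of chromosome IV 32 of 48 IDR sites were within the top 1000 of both, and over the genome 354 of 530, 66.8%. The pooled list was called on these same alignments, so the overlap is not independent evidence for a site.

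The largest differences in rank between the replicates, among the 14 IDR sites, were at 3 of them. K02B2.6 had a signal of 6.74 at rank 3825 in replicate 1 and 26.92 at rank 102 in replicate 2. For nhr-46 the ranks were 1520 in replicate 1 and 701 in replicate 2, and for Y37A1B.7 they were 594 and 145. All of these ranked nearer the top in replicate 2.

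Read the other way, replicate 1 had 17 window peaks in its own top 530 and replicate 2 had 18. Of the 17, 10 overlapped an IDR site and 9 a top 530 peak of replicate 2. Of the 18, 12 overlapped an IDR site and 9 a top 530 peak of replicate 1. The top 530 of the replicates therefore shared 9 window sites, and 8 of the 17 and 9 of the 18 stood in a single top 530. The same overlap was not counted for peaks outside the windows, so it cannot be called particular to them.

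Below the top, support from both replicates was thinner. Of all 1727 candidates, 379 overlapped a peak in both replicate lists, 21.9% (20 to 24) against 26.7% (25.1 to 28.2) in the rest of chromosome IV. Rank 1000 or better in both was reached by 15, 0.869% (0.487 to 1.43), where 1.46% of the rest and a background of 1.49% of all candidates did. A peak in replicate 1 was found for 45.4% of the window candidates and 53.3% of the rest. Replicate 2 had one for 61.8% of the window candidates and 60.2% of the rest. No peak in either list was found for 254 window candidates, or 14.7%, although the pooled list holds them. By the shares given above, the rest of chromosome IV had a slightly lower share without a peak in either list.

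How close were the summits to piRNA genes? Over the windows as a whole, the share of summits beside piRNA genes was about the share of bases there. A summit lay within 200 bp of a piRNA gene for 805 candidates, 46.6% (44.2 to 49.0), where 46.4% of the bases of the windows do. In the left window the share was 32.1% where 30.1% of bases do, and in the right window 58.3% where 57.5% of bases do. Outside the windows 60 candidates, 1.82%, were so placed where 1.57% of bases are. By replicate the window share was 41.9% in replicate 1 and 50.9% in replicate 2, one below and one above the share of bases.

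In the pooled list the share beside piRNA genes was lower in the stronger classes, and below the top 530 only replicate 1 showed this too. Within 200 bp of one were 2 of the 14 IDR sites (14.3%, 1.78 to 42.8) and 82 of the 211 candidates ranked 531 to 5000 (38.9%, 32.2 to 45.8). In ranks 5001 to 15000 the share was 46.6% (42.6 to 50.6) and in ranks 15001 to 30000 it was 49.0% (45.6 to 52.3). In replicate 1 the shares were 11.8% (2 of 17 peaks), 27.5%, 43.6% and 45.3% in the same classes of its own ranks. In replicate 2 they were 11.1% (2 of 18 peaks), 49.1%, 49.5% and 53.0%. In the pooled list, median GC content around the summit fell along the same classes, with 46.5%, 36.6%, 31.7% and 31.7%, and its part in the trend was not tested. Seen from the genes, 1655 of the 14204 window piRNA genes (11.7%) had a candidate summit within 200 bp. For 159 (1.12%, 0.953 to 1.31) it was of rank 5000 or better, and for 2 an IDR site. In the rest of chromosome IV 64 of 510 piRNA genes (12.5%) had a candidate so placed. For 13 of them (2.55%, 1.36 to 4.32) it was of rank 5000 or better, and for none an IDR site. Several piRNA genes can lie beside the same summit, so these genes are not independent counts.

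**Figure D5:**
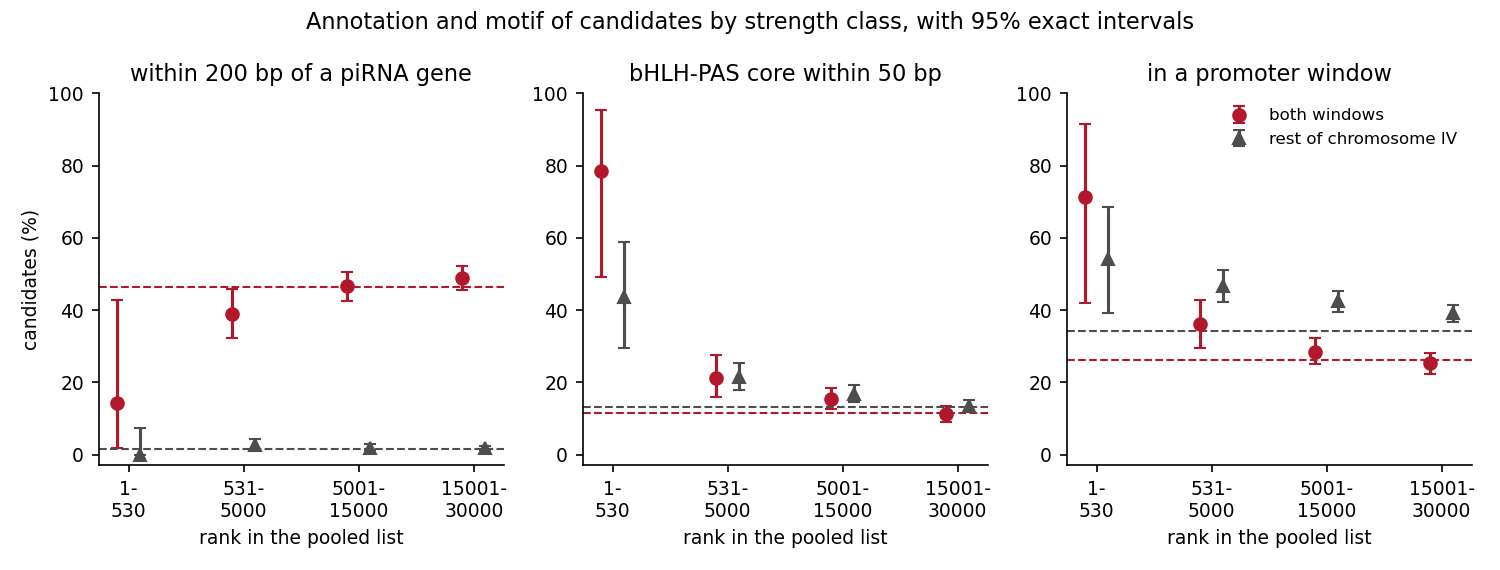
Share of candidates (vertical axis, percent) within 200 bp of a piRNA gene, with the bHLH-PAS core (ACGTG or GCGTG) within 50 bp of the summit, and in a promoter window, by rank class of the pooled list (horizontal axis), in the piRNA windows (circles) and in the rest of chromosome IV (triangles); bars are 95% exact binomial intervals and dashed lines the share of bases or of 101-bp stretches in each. Beside piRNA genes the window share is 14.3% in the strongest class and 49.0% in the weakest, and for the core it is 78.6% in the strongest class and 11.1% in the weakest.

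The stronger candidates beside piRNA genes can be set against the other window candidates of rank 5000 or better. Of the 84 candidates of rank 5000 or better within 200 bp of a piRNA gene, 9 had a core within 50 bp, 10.7% (5.02 to 19.4), against 47 of the other 141, 33.3% (25.6 to 41.8). Both replicates ranked 7 of the 84 within their top 5000, 8.33% (3.42 to 16.4), against 37 of the 141, 26.2% (19.2 to 34.3). The interval pairs do not overlap, but they cover counting only. The 2 sets also differ in rank: the 84 held 2 of the 14 IDR sites and 27 of the 100 strongest window candidates. Median GC content was 28.7% for the 84 and 42.6% for the 141. What part rank or GC content has in either difference was not tested. A promoter window of a protein-coding gene held 19 of the 84, and a tRNA gene lay within 200 bp of 3.

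The strongest candidates beside piRNA genes were looked at singly. The strongest, at sqrd-1, lay 150 bp beyond the end of 21ur-10600 and 15 bp before the sqrd-1 start. K02B2.6 had its summit 38 bp from 21ur-5229 and 13 bp from a tRNA gene (WBGene00022903), whose first bases stand at the end of the sequence shown. Near F55B11.4 the summit lay 21 bp upstream of 21ur-14549, with 4 piRNA genes within 200 bp, no core and 24.8% GC. Its rank was 549 in the pooled list, 2006 in replicate 1 and 1035 in replicate 2.

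In fkh-7, a forkhead gene, there were sites at rank 727 in an intron and at rank 861 in an untranslated exon. A further site 2670 bp past the sqrd-1 start, at rank 1103, had its summit inside a tRNA gene (WBGene00014305). An intron of Y105C5A.15 held a site at rank 1237, which ranked 2341 in replicate 1 and 1999 in replicate 2. Y40H7A.2 at rank 1613 had no peak in replicate 1 and rank 1322 in replicate 2. The last, near Y51H4A.8 at rank 1620, ranked 7760 in replicate 1 and 23868 in replicate 2.

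The side on which summits lay was close to that of the bases. Among the 805 candidates beside a piRNA gene, 364 had the summit upstream of its start, 45.2% (41.7 to 48.7), where 46.8% of the bases within that distance lie upstream. At rank 5000 or better it was 31 of 84, 36.9% (26.6 to 48.1). CTGTTTCA was found within 50 bp of 119 window summits, 6.89% (5.74 to 8.19), where 7.41% of the consecutive 101-bp stretches of the windows hold it. In the rest of the chromosome it was found at 0.728% of summits and in 0.751% of stretches. None of the 14 IDR sites had it, which allows a share of up to 23.2% by the exact interval.

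The bHLH-PAS core was at most IDR sites of the windows. ACGTG or GCGTG, on either strand and counted once per summit, stood within 50 bp of 11 of the 14 IDR sites in the windows, 78.6% (49.2 to 95.3). In the rest of chromosome IV 21 of 48 IDR sites had it, 43.8% (29.5 to 58.8), and over the genome 262 of 530, 49.4% (45.1 to 53.8). Among the 530 strongest peaks of replicate 1 the shares lay closer together. They were 9 of 17 in the windows, 52.9% (27.8 to 77.0), and 21 of 53 in the rest, 39.6% (26.5 to 54.0). The core was present in 11.5% of the 101-bp stretches of the windows and 13.1% of those in the rest. Below the IDR sites the window shares were 21.3% for ranks 531 to 5000, 15.4% for ranks 5001 to 15000 and 11.1% for ranks 15001 to 30000, the last within its interval (9.09 to 13.3) of the share of stretches. Over all window candidates it was 14.4% (12.8 to 16.2), and over the rest 16.1% (14.9 to 17.4). The 3 IDR sites without it were those of WBGene00194913, K02B2.6 and nhr-46.

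A shared sequence of another kind appeared at a pair of neighbouring sites in the right window. The summits of the ntl-11 site and the Y73F8A.27 site lay 976 bp apart. At the best ungapped alignment of their 101-bp windows, 85 of 95 positions were identical, or 89.5%. Both held GACGCAG, shown here in capitals because it also stood at further strong sites.
ntl-11, chrIV:15471568-15471648: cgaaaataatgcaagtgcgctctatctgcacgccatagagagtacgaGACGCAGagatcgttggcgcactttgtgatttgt
Y73F8A.27, chrIV:15472544-15472624: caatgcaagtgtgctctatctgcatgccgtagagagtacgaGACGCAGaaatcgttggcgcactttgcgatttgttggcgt
Y105C5A.15, rank 1237, chrIV:15696988-15697068: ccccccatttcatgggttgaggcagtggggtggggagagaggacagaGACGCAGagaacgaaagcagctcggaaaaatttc

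How reads were shared between the similar copies is not known here. The ntl-11 site ranked 92 in the pooled list, 262 in replicate 1 and 78 in replicate 2, and the Y73F8A.27 site 531, 342 and 1366. GACGCAG, on either strand, stood within 50 bp of 3 of the 20 strongest window candidates. It was found at 15 of the 211 window candidates ranked 531 to 5000, 7.11% (4.03 to 11.5), and at 8 of the 884 ranked 15001 to 30000, 0.905% (0.391 to 1.78), where 0.640% of the 101-bp stretches of the windows hold it. In the rest of chromosome IV the share was 18.8% (8.95 to 32.6) at IDR sites and 1.32% (0.826 to 1.98) in the weakest class, and over the genome 11.9% (9.26 to 15.0) and 1.07%. The sequence was picked after these sites had been read, so the strong window sites are no independent support for it.

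Genes that make and use piRNAs were looked up for AHA-1 candidates of their own. Of 33 genes listed by role, 31 matched a single protein-coding gene. A candidate summit stood in the promoter window of 14 of the 31, 45.2%, where 46.8% of all protein-coding genes have one. The only listed gene with an IDR site there was ego-1, 1 of 31 against a background of 2.09% of protein-coding genes. EGO-1 is an RNA-dependent RNA polymerase of the germ line; its site ranked 418 in the pooled list, 1159 in replicate 1 and 208 in replicate 2, and lay outside the windows on another chromosome.

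By role, 5 of 10 genes of piRNA transcription had a candidate. Among them was snpc-4, the small nuclear RNA activating factor at piRNA promoters, at rank 5495 with a signal of 10.4. The snpc-4 candidate ranked only 26697 in replicate 1 and 17458 in replicate 2. None of the 10 genes had a candidate of rank 5000 or better, where 12.9% of all protein-coding genes have one. Over all 31 listed genes 2 had one, 6.45%. With promoter windows from 2000 bp upstream it was 4 of 31, 12.9%, against 17.0% of all protein-coding genes. Of 11 processing genes 5 had a candidate of any rank, and ife-3, a translation initiation factor that binds RNA caps, was the strongest at rank 4941. The ife-3 candidate had no peak in replicate 1 and rank 2339 in replicate 2. Among 10 effector and silencing genes 4 had a candidate. The Piwi gene prg-1 and the nuclear Argonaute gene hrde-1 had none in the pooled list.

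A single listed gene, pgl-1, had its candidate among the window candidates. PGL-1 is a core protein of the germ granules in which piRNAs act. The candidate, 592 bp upstream of a pgl-1 start and in a coding exon, ranked 5330 with a signal of 10.5 and had no counterpart in either replicate list. csr-1, an Argonaute gene on chromosome IV outside the windows, had one at rank 8990.

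At the limits of the windows the candidates were of low to middle rank. At the start of the left window the first candidate inside, in an intron of gbb-2, ranked 22779, and the nearest outside, nearest to the start of ZK180.7, ranked 22656. At its end the last inside, in an intron of C25A8.5, ranked 23101 and the nearest outside, upstream of cht-3, ranked 16925. The right window began with rank 9543 inside, in tbc-9, beside rank 29615 outside, nearest to Y45F10A.7. It ended with rank 18174 inside and rank 20230 outside, both in cnnm-1.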

How the data were processed

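Per the deposited descriptions, peak calling against a control was done for each replicate and for both pooled. The sources used here give no aligner, no peak caller and no IDR threshold. The authors' lists give a signal value per peak, on a scale that is not stated, and a −log10 q-value. As deposited, the −log10 q-value was at its maximum for 928 pooled peaks, so ranks follow the signal. Tied signals kept the file's order. Nearly all pooled peaks (99.9%) were 316 bp wide, so width was not used. Read depth is unknown, and intervals cover the counting of peaks or genes only. Library sizes ran from 150 to 350 bp per the labels.

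Members were selected and annotated in Python 3.11.15 with numpy 2.4.6, pandas 2.3.3 and scipy 1.17.1, on WBcel235 with Ensembl release 115. Coordinates count from 1. A replicate peak matched a pooled candidate by 1 bp of overlap, taking its best rank. The matching and counting steps were tested on simulated peaks. Intervals are 95% exact Clopper-Pearson or Poisson intervals. No test was run, since there is 1 group of 2 replicates. The members, the gene lists and the comparisons were chosen with earlier results of these data known. Named genes are the nearest protein-coding starts at the 20 strongest members, at the 10 strongest within 200 bp of a piRNA gene, at the 5 strongest of each window, at the 3 IDR members with the largest rank difference and at the window edges, and the listed piRNA pathway genes. tofu-3 and prg-2 had no single match. Of the sites this rule names, 1 is not reported here. Alternatives were each replicate alone, the ce10 list, other window edges, thresholds, overlap rules, distances and promoter windows.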

Additional observations from a re-analysis of the deposited data

How the results depend on the processing

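Of 53 alternative values for 10 results, 33 stayed within the main value's counting interval (counts: within 1.5 times). With either replicate left out, the density ratio of windows over rest ran from 0.783 to 1.01, the share beside piRNA genes from 41.9% to 50.9% and the promoter share from 28.8% to 30.9%. The cause was not tested. The density ratio was 1.06 in the left window, 0.884 in the right window and 0.779 among the 5000 strongest candidates. Rank 5000 or better in both replicates held 3.36% of members. Members with a peak in both lists numbered 170 with summits within 100 bp and 237 with an overlap of at least 0.5 of the shorter peak. Within 100 and 500 bp of a piRNA gene lay 30.9% and 63.9% of summits, where 31.9% and 62.2% of bases do; in the left window alone 32.1% and in the right 58.3%. With motifs sought within 25 and 100 bp, the shares were 8.11% and 24.6% for the bHLH-PAS core and 3.36% and 15.2% for CTGTTTCA. Promoter windows from 500 bp upstream to 200 bp downstream held 16.8%, and those from 2000 bp upstream 40.2%. These shares move with the size of the window by construction. No paired analysis was possible because there is 1 group only. The 14 IDR members limit every statement on the strongest sites.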

Other observations

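Other small RNA genes lay beside some window candidates. A tRNA gene was within 200 bp of 23 of them, 1.33% (0.846 to 1.99), where 0.306% of the bases of the windows are, and of 19 candidates in the rest of chromosome IV, 0.576% (0.347 to 0.898), where 0.125% of bases are. Of the 23, 13 were of rank 5000 or better, 56.5%, where 16.7% of all candidates are. Only 1, near K02B2.6, was an IDR site, where 1.77% of all candidates are listed. The same counts were not made for the 19 in the rest, so they cannot be called particular to the windows. A snoRNA gene was within 200 bp of 5 of the 1727 window candidates and 21 of the 3298 in the rest. The shares of bases so placed were 0.162% in the windows and 0.186% in the rest. A microRNA gene was within 200 bp of 4 and 6, where 0.142% and 0.131% of bases are. These counts are small and were not tested.

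Candidates lay close together in places. Of the 1727 window candidates, 698 (40.4%) had the summit of another within 1000 bp and 229 (13.3%) within 500 bp.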
